A study of Mus musculus with 8 samples.

Results

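The genes described here encode the hormones that hypothalamic neurosecretory neurons release into the blood, with the enzyme and the peptides that travel with them. The list names 10 genes: Avp, Oxt, Crh, Trh, Ghrh, Gnrh1, Sst, Th, Tac2 and Gal. The list groups them by function. A gene was measured when a probe set of the array was annotated to that gene alone. This held for 9 of the 10, each with 1 such probe set, among 18194 genes in all, and Gnrh1 is not analysed here. Values are RMA levels on the log2 scale, on which a difference of 1 is a doubling.

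Each array held RNA from the hypothalamus of 1 mouse of 10 weeks, with 4 mice of the wild type and 4 of the Nestin-Pex5-/- genotype, all untreated and of Swiss Webster background. In Nestin-Pex5-/- mice a Cre recombinase driven by Nestin, which is active in neural progenitors, removes Pex5, the receptor that imports enzymes into peroxisomes, so that neurons, astrocytes and oligodendrocytes lose it while cells of other origin, such as microglia, keep the gene. No source used here gives the sex of the mice or the borders of the dissection. The wild type arrays are numbered 1 to 4 and the Nestin-Pex5-/- arrays 7 to 10. Pex5 itself was read at 8.66 ± 0.04 in wild type and 8.67 ± 0.07 in Nestin-Pex5-/- hypothalamus (mean ± SD, n = 4 each), and its other probe set differed by -0.07. No source used here gives the position of these probe sets relative to the deletion, so they do not check the labels.

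Neurosecretory neurons come in large and small forms. Magnocellular neurons of the paraventricular and supraoptic nuclei make vasopressin (Avp) or oxytocin (Oxt) and send axons to the posterior pituitary. Parvocellular and arcuate neurons release their products at the median eminence, from where portal vessels carry them to the anterior pituitary: corticotropin-releasing hormone (Crh), thyrotropin-releasing hormone (Trh) and growth hormone-releasing hormone (Ghrh) stimulate it, whereas somatostatin (Sst) restrains growth hormone and dopamine restrains prolactin. Tyrosine hydroxylase (Th) makes the dopamine precursor, Tac2 encodes neurokinin B of the arcuate neurons that pace gonadotropin-releasing hormone, and galanin (Gal) is a co-transmitter of many of these cells. Th, Sst, Tac2 and Gal are also made by neurons that do not secrete into the blood.

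Sequences upstream of 4 members are shown because they pair genes that the results below set side by side. Avp and Oxt are neighbours with opposite strands, 3565 bases apart between their ends and transcribed toward each other, and Sst and Th share an exact motif. Each sequence holds the 250 bases before the start site that RefSeq gives in GRCm38.p6, read 5′ to 3′ on the gene's strand. Capitals mark AGGTCA, a half-site of nuclear receptors, or its complement TGACCT, and TGACGTCA, the cyclic AMP response element, which reads the same on both strands.
Oxt, chr2:130575919-130576168, plus strand: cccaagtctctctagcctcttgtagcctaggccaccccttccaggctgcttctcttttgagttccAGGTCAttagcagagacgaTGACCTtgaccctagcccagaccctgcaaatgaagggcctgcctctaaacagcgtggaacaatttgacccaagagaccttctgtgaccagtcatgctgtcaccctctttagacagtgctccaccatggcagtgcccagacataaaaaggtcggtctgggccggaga
Avp, chr2:130582589-130582838, minus strand: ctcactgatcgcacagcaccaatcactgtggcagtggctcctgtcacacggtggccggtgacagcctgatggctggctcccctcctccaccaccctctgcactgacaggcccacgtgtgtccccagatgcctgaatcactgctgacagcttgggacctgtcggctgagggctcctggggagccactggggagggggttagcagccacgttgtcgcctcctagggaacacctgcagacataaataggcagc
Sst, chr16:23890845-23891094, minus strand: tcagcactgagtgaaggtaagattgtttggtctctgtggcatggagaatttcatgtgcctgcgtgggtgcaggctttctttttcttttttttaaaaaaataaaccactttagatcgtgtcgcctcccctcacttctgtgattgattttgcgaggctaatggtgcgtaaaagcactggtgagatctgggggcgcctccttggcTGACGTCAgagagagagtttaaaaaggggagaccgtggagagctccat
Th, chr7:142899996-142900245, minus strand: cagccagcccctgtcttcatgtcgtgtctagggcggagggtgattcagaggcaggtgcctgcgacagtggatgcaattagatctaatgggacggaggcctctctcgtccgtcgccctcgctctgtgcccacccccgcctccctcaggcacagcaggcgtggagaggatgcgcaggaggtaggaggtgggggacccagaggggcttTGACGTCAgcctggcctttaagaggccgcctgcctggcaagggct

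Of the 9 measured members, 8 had an entry in the promoter table, and Crh had none. On either strand, AGGTCA was found upstream of Oxt, Trh and Ghrh, and in 14.0% of all 32851 windows of this length. In the Oxt window it begins 185 bases before the start, and its complement 166 bases before it. TGACGTCA was found upstream of Sst and Th only among the 8, beginning 48 and 45 bases before the start, and in 1.55% of all windows. The motifs do not overlap in any window shown, and a match describes the letters, not a site in use.

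None of the 9 members passed the test between the genotypes. The highest estimate was 0.00 for Avp and the lowest -0.42 for Oxt, on the log2 scale, and for every member the Nestin-Pex5-/- arrays overlapped the wild type arrays. The test was limma's, fitted over all 18194 genes, with Benjamini-Hochberg adjusted p under 0.05 as the threshold, and the adjusted p of the members ran from 0.216 to 0.994. Of all genes, 4.77% passed (724 higher, 3.98%, and 144 lower, 0.791%), and in 11.1% of all genes there was no overlap between the genotypes. Before adjustment 2 members, Crh and Sst, had p under 0.05, against 16.9% of all genes. The estimate was below 0 for 8 of 9 members and for 61.7% of all genes, with medians of -0.33 and -0.03. In bulk tissue, fewer cells of a kind cannot be told apart from less RNA per cell. The limma p-values rest on the spread between these 8 mice, drawn toward the spread of all genes. The permutation p-values below use only the arrays of the gene itself.

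**Figure D1:**
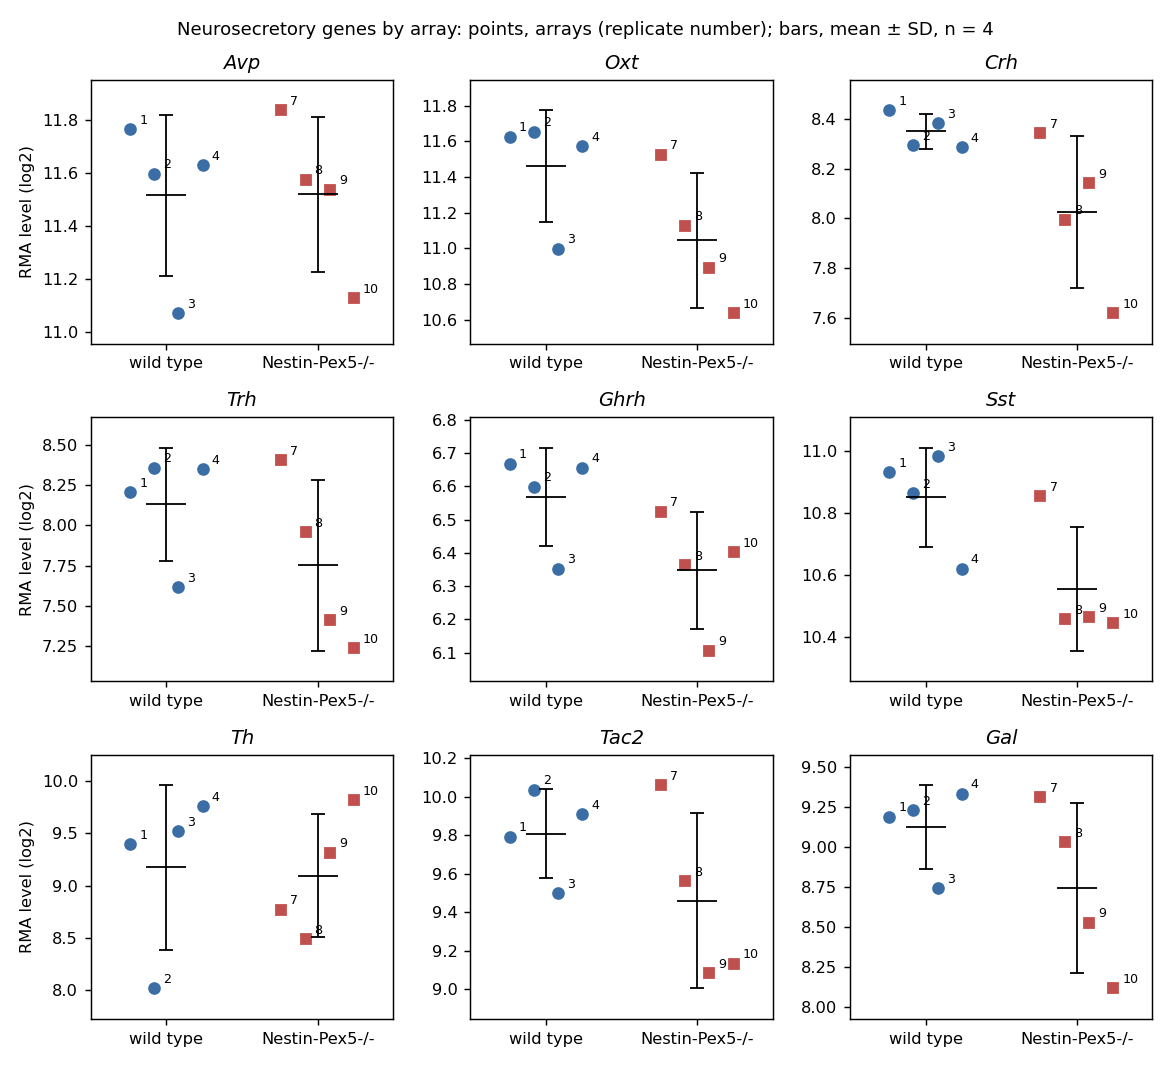
RMA level (log2) of the 9 measured neurosecretory genes in each of 4 wild type (circles) and 4 Nestin-Pex5-/- arrays (squares), numbered by replicate; bars are mean ± SD. In each panel the genotypes overlap, and wild type array 3 is the lowest wild type array for Avp, Oxt, Trh, Ghrh, Tac2 and Gal.

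Among the magnocellular hormones, Avp, which encodes vasopressin and its carrier neurophysin, had nearly equal means in both genotypes. Avp was read at 11.76, 11.60, 11.07 and 11.63 in wild type arrays 1 to 4 and at 11.84, 11.57, 11.54 and 11.13 in Nestin-Pex5-/- arrays 7 to 10. One array of each genotype was low and the rest lay close together. The difference for Avp was 0.00 ± 0.17 (SE), with a 95% interval of -0.39 to 0.40 on the log2 scale (0.764- to 1.31-fold), which leaves room for a change of that size in either direction. The estimate lay on the other side of 0 under several settings, with values from -0.14 to 0.13 when single arrays were left out.

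Oxt, the oxytocin gene next to Avp, had the largest difference of the members. It was read at 11.63, 11.65, 11.00 and 11.57 in wild type and at 11.53, 11.13, 10.89 and 10.64 in Nestin-Pex5-/- arrays. Arrays 9 and 10 lay below every wild type array, array 7 lay just under the upper 3 wild type arrays, and wild type array 3 lay with the low Nestin-Pex5-/- arrays. The Oxt difference was -0.42 ± 0.20 (0.749-fold, 95% interval 0.548 to 1.02), with an adjusted p of 0.334 by limma and an exact two-sided permutation p of 0.143. With 4 against 4 arrays the smallest permutation p is 0.029. The intervals of the Avp and Oxt differences overlap, and the difference between them was not tested.

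Of the releasing hormones, Crh, which drives the pituitary-adrenal axis, had the tightest wild type values. Crh was read at 8.44, 8.29, 8.38 and 8.29 in wild type and at 8.34, 7.99, 8.14 and 7.62 in Nestin-Pex5-/- arrays, so that 3 of 4 Nestin-Pex5-/- arrays lay below all wild type arrays. Its SD was 0.07 in wild type and 0.31 in Nestin-Pex5-/- hypothalamus. The difference was -0.33 ± 0.13 (0.798-fold, interval 0.648 to 0.982), with an unadjusted limma p of 0.0362 that became 0.257 after adjustment over all genes and an exact permutation p of 0.0857. Without array 10, the lowest, the difference was -0.19.

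Trh, which sets the pituitary-thyroid axis, was read at 8.21, 8.36, 7.62 and 8.35 in wild type and at 8.41, 7.96, 7.41 and 7.24 in Nestin-Pex5-/- arrays. The Nestin-Pex5-/- values spanned 2.24-fold, from above every wild type array to below every one of them. The difference was -0.38 ± 0.26, with an adjusted p of 0.506. Ghrh, which stimulates growth hormone, was read at 6.67, 6.60, 6.35 and 6.65 and at 6.52, 6.36, 6.11 and 6.40. Its difference of -0.22 ± 0.10 had an adjusted p of 0.318, and its single probe set has a name ending in _a_at, a class that reads several transcripts of 1 gene.

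Among the inhibitory hormones, Sst, whose somatostatin holds back growth hormone and which is also made by inhibitory neurons across the forebrain, came closest to the threshold. Sst was read at 10.93, 10.87, 10.98 and 10.62 in wild type and at 10.86, 10.46, 10.47 and 10.45 in Nestin-Pex5-/- arrays. Arrays 8, 9 and 10 lay within 0.02 of each other and below all wild type arrays, whereas array 7 lay among the wild type arrays. The difference was -0.29 ± 0.11 (0.815-fold, interval 0.685 to 0.971), with an unadjusted limma p of 0.0263, an adjusted p of 0.216 and an exact permutation p of 0.0571. Sst passed the threshold in 2 of its 17 alternative settings, without array 7 (-0.39, adjusted p = 0.0448) and with limma's array weights, which give less weight to arrays that fit poorly (-0.39, adjusted p = 0.0155). Over all of its alternatives the adjusted p ran from 0.0155 to 0.413.

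Th, the rate-limiting enzyme of dopamine synthesis, varied more between arrays than any other member. Th was read at 9.39, 8.02, 9.52 and 9.76 in wild type and at 8.77, 8.48, 9.31 and 9.82 in Nestin-Pex5-/- arrays. The wild type arrays spanned 3.35-fold, with array 2 alone at the low end, and their SD of 0.79 was above that of 99.7% of all genes. The difference was -0.08 ± 0.39, with a 95% interval of -0.96 to 0.81 (0.513- to 1.75-fold), and without wild type array 2 it was -0.46 with an adjusted p of 0.484.

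Tac2 and Gal, the arcuate neurokinin B gene and the galanin co-transmitter gene, followed the pattern of Trh. Tac2 was read at 9.79, 10.03, 9.50 and 9.91 in wild type and at 10.06, 9.56, 9.08 and 9.13 in Nestin-Pex5-/- arrays. Gal was read at 9.19, 9.23, 8.74 and 9.33 and at 9.31, 9.03, 8.53 and 8.12. In both genes wild type array 3 was the lowest of its genotype and arrays 9 and 10 lay below it. The differences were -0.35 ± 0.21 for Tac2 (adjusted p = 0.442) and -0.38 ± 0.24 for Gal (adjusted p = 0.474), both by limma.

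**Figure D2:**
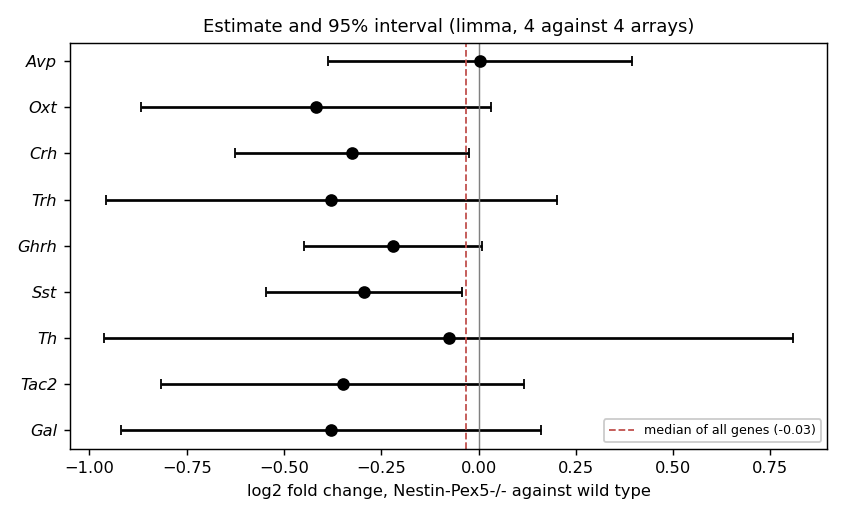
Difference between the genotypes for each of the 9 measured genes (limma estimate with its 95% interval, log2 scale, 4 against 4 arrays); the dashed line is the median of all genes, -0.03. The limma intervals of Crh and Sst lie below 0 before any adjustment, and those of Th and Trh are the widest. The exact permutation p was 0.0857 for Crh and 0.0571 for Sst.

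The members differed more from mouse to mouse than most genes did. The SD of a member ranged from 0.07 to 0.79 in wild type arrays, with a median of 0.26, against a median of 0.12 over all genes. In Nestin-Pex5-/- arrays it ranged from 0.18 to 0.59, with a median of 0.38 against 0.09 over all genes. The SD was larger in the Nestin-Pex5-/- arrays for 7 of 9 members, all but Avp and Th, and for 38.0% of all genes. No test of the spread was made.

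The Nestin-Pex5-/- arrays did not contribute equally to the lower means. In array 7 none of the 9 members lay below the lowest wild type array, and Avp, Trh and Tac2 lay above the highest. In array 8, 2 members lay below the lowest wild type array, Crh and Sst. In array 9 there were 7, Oxt, Crh, Trh, Ghrh, Sst, Tac2 and Gal, and in array 10 there were 6, the same without Ghrh, while Th lay above the highest wild type array there. Over all genes, the share below the lowest wild type value was 21.8% in array 7 and 25.9% to 27.3% in arrays 8 to 10, and the share above the highest was 17.6% in array 7 and 16.4% in array 10. The 8 hypothalamus markers, Otp and Sim1 among them, averaged 7.97, 7.75, 7.57 and 7.76 in arrays 7 to 10 and 7.66 to 8.02 in wild type arrays. The mean of the meningeal markers was 7.08 and 7.33 in arrays 7 and 8, 8.32 and 8.22 in arrays 9 and 10, and 7.71 to 8.53 in wild type arrays. The part of either list in the hormone values was not tested.

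Avp, Oxt, Trh, Tac2 and Gal moved up and down together over the arrays. Taken as deviations from the mean of each genotype, their 10 pairs had Pearson correlations from 0.74 to 0.97 over 8 arrays, a description of arrays that each hold 1 dissected hypothalamus. Ghrh had correlations of 0.56 to 0.75 with these 5 genes, and Crh had 0.51 to 0.67. The highest of Ghrh, with Tac2, was above the lowest among the 5, so the pattern is graded and the 5 are no separate block. Sst had correlations of 0.21 to 0.46 with these 5 genes, and Th had -0.59 to -0.17 with the other members. In wild type array 3 these 5 genes were low, with differences of -0.31 to -0.51 from the wild type mean. In the same array the hypothalamus markers averaged 7.66 (7.91 to 8.02 in arrays 1, 2 and 4), and the 4 striatal and septal markers averaged 9.88 (7.90 to 8.97 in the others, and 7.78 to 8.33 in Nestin-Pex5-/- arrays). Ppp1r1b, the phosphoprotein of striatal projection neurons, reached 11.09 there, while the rest of the wild type group lay between 8.06 and 9.62. The part of tissue next to the hypothalamus in these values was not tested.

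**Figure D3:**
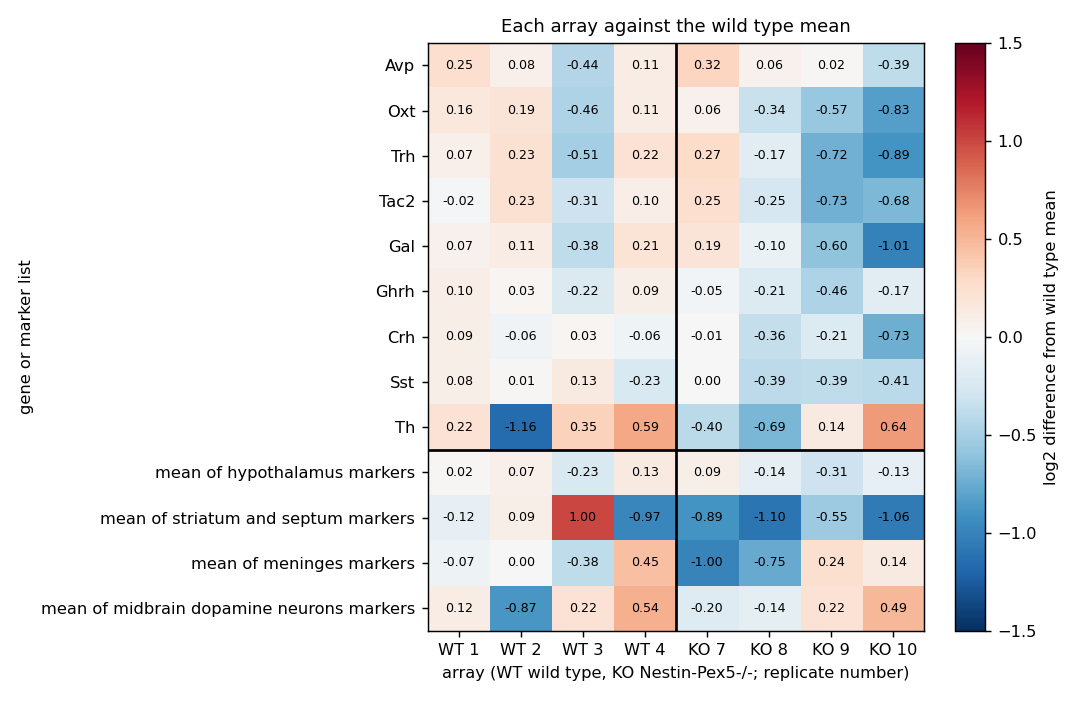
Log2 difference of each array from the wild type mean, for the 9 genes and, below the line, for the mean of 4 marker lists; WT is wild type and KO Nestin-Pex5-/-, with replicate numbers. Avp, Oxt, Trh, Tac2 and Gal are low together in wild type array 3 and, in the Nestin-Pex5-/- group, lowest in arrays 9 and 10 (Avp in array 10), whereas Th follows the midbrain dopamine markers.

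The genes whose deviations were most like those of Trh were Rpl6, a ribosomal protein gene, Gpx3, a glutathione peroxidase gene, and Irs4, an insulin receptor substrate found in hypothalamus, with correlations of 0.99 each over 8 arrays. Those most like Th were Slc18a2 (0.99), the transporter that loads dopamine into vesicles, Ddc (0.99), which makes dopamine from the product of Th, and Sla2 (0.98), an adaptor gene. With 8 arrays and 18194 genes, correlations of this size are a ranking and not a test.

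Wild type array 2, the low array for Th, was low for other genes of dopamine neurons. Slc6a3, the dopamine transporter of midbrain and some hypothalamic dopamine neurons, was read at 9.87, 5.64, 9.99 and 10.20 in wild type and at 8.56, 8.81, 9.89 and 10.44 in Nestin-Pex5-/- arrays. The wild type arrays thus spanned 23.6-fold on this probe set. Ddc was 9.49 in that array and 10.32 to 10.62 in wild type arrays 1, 3 and 4, and Slc18a2 was 7.98 against 9.03 to 9.24. The mean of 6 midbrain dopamine markers was 5.27 in that array, 6.26 to 6.68 in the remaining wild type arrays and 5.94 to 6.64 in Nestin-Pex5-/- arrays. Slc6a3 is itself among the 6, so its low value in that array is part of the low mean. Whether midbrain tissue entered the dissections in unequal amounts was not tested.

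**Figure D4:**
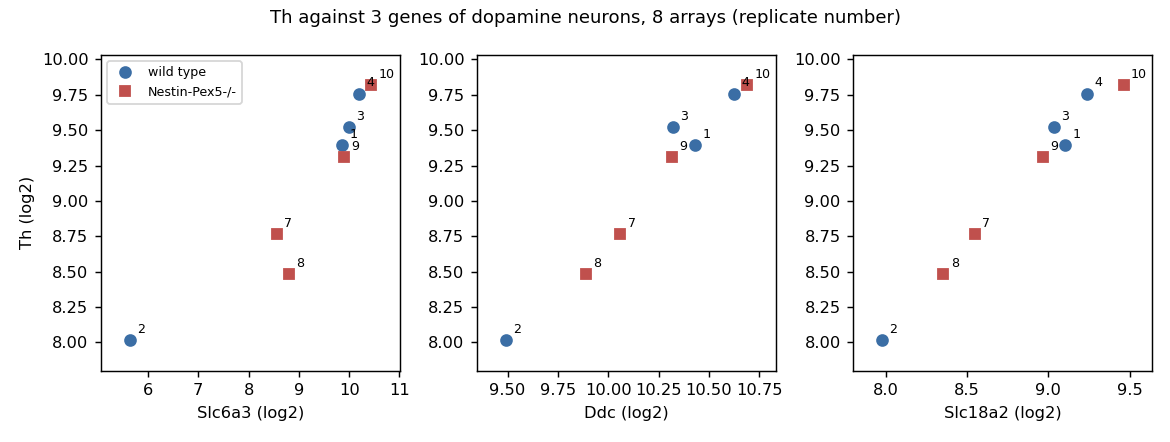
Th level against the levels of Slc6a3, Ddc and Slc18a2 (all log2) in 4 wild type (circles) and 4 Nestin-Pex5-/- arrays (squares), numbered by replicate. Wild type array 2 is lowest in all 4 genes, with Th at 8.02 and Slc6a3 at 5.64, and both genotypes lie along the same band.

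The genes around the hormones were taken from lists by function. Of the receptors and the binding protein of the member hormones, 23 of 25 were measured. Of these, 1 passed the test, a share near the 4.77% of all genes. It was Avpr1a, the vasopressin receptor of brain and vessels, which fell. Avpr1a was read at 6.69, 6.66, 6.81 and 6.75 in wild type and at 6.55, 6.35, 6.46 and 6.39 in Nestin-Pex5-/- arrays, without overlap. The difference was -0.29 ± 0.06 (0.819-fold), with an adjusted p of 0.0301. The call was lost when the 2 probe sets of Avpr1a were averaged (adjusted p = 0.149), with the arrays shifted to 1 median (0.0633) and with trended and robust eBayes (0.067). Leaving out single arrays gave adjusted p from 0.0238 to 0.102, and the call was kept without wild type array 4 and without Nestin-Pex5-/- array 7. Its dimmer probe set differed by -0.24 with an adjusted p of 0.438. Avpr1a gave no value under the filter on dim probe sets. All 23 estimates of the list were below 0, with a median of -0.12, against 61.7% of all genes with a median of -0.03. Several genes of the list were dim, such as Galr2 at 4.04 and Drd3 at 4.17 in wild type arrays. With dim probe sets left out, the median of all genes was -0.01. The part of dimness in the estimates of the list was not tested. Under array weights 19 of the list were below 0. Among those that did not pass, Oxtr, the oxytocin receptor, differed by -0.30 (adjusted p = 0.206), and Crhr2, a receptor of Crh family peptides, by -0.34 (adjusted p = 0.0901). Drd1, the dopamine receptor counted among the striatal markers, differed by -1.29 (adjusted p = 0.2). Drd2, the dopamine receptor of pituitary and striatum, differed by -0.71 (adjusted p = 0.118) and was 9.03 in wild type array 3, in which the striatal markers were high, whereas arrays 1, 2 and 4 lay between 7.97 and 8.06. Under array weights Crhr2 and Drd1 also passed, with the arrays shifted to equal Actb 5 genes of the list passed, Crhr2 and Drd2 among them, and each of Crhr2, Drd1 and Drd2 passed when a certain single array was left out.

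Of the genes that process prohormones or build secretory granules, 20 of 21 were measured. Of these, 1 passed, again a share near the 4.77% of all genes. It was Scg3, a granin that helps to sort cargo into granules, which rose. Scg3 was read at 11.85, 11.76, 11.78 and 11.73 in wild type and at 11.99, 11.98, 11.99 and 12.10 in Nestin-Pex5-/- arrays. The difference was 0.24 ± 0.06 (1.18-fold), with an adjusted p of 0.0409. The call was lost when the arrays were shifted to equal Actb, where the difference was 0.11 (adjusted p = 0.239), or to 1 median (0.111), after a second quantile normalization (0.0659) and with every probe set as its own feature (0.0562). Leaving out single arrays gave adjusted p from 0.0486 to 0.129, and the call was kept only without wild type array 4. The median of the list was -0.09.

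**Figure D5:**
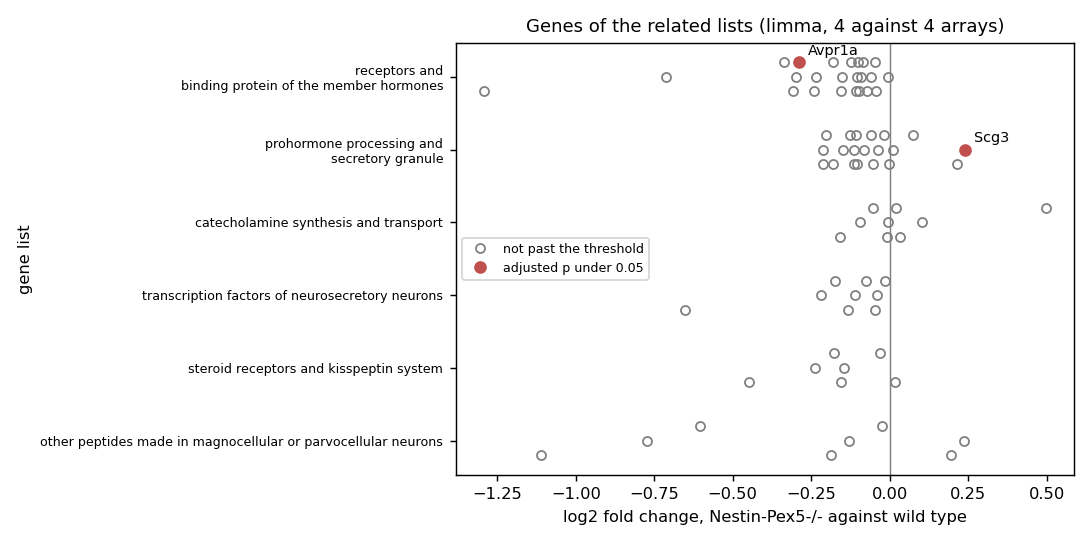
Log2 fold change of each measured gene in 6 lists of related genes (limma, 4 against 4 arrays); vertical offsets only separate the points. The filled points are Avpr1a at -0.29 and Scg3 at 0.24, the genes past the threshold, and all other genes are open.

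Beside Th, 9 of 10 genes of catecholamine synthesis and transport were measured and none passed. Qdpr, which recycles the cofactor of tyrosine hydroxylase, differed by 0.10 (adjusted p = 0.492), and Maob, which breaks down dopamine, by -0.09 (adjusted p = 0.801). None of the 9 transcription factors of neurosecretory neurons passed. Otp, which neurosecretory lineages need to form, differed by -0.17 (adjusted p = 0.619) and Sim1, which shares that role, by -0.05 (adjusted p = 0.896). The most highly read of the list, Arnt2 and Nr4a2, differed by -0.07 and -0.04. Isl1, of arcuate and other ventral forebrain neurons, had the largest difference of the list at -0.65 (adjusted p = 0.0965), and it passed under array weights, when the arrays were shifted to equal Actb and without Nestin-Pex5-/- array 7.

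None of the 7 measured of 9 steroid receptor and kisspeptin genes passed. Nr3c1, the glucocorticoid receptor through which corticosterone restrains Crh, differed by 0.02 (adjusted p = 0.946), and Pgr, the progesterone receptor, by -0.15 (adjusted p = 0.45, and 0.0499 under array weights). Pdyn, the dynorphin gene of vasopressin and kisspeptin neurons, differed by -0.45 (adjusted p = 0.0635), and it passed after a second quantile normalization, under both shifts of the arrays, under array weights and without wild type array 4 or Nestin-Pex5-/- array 7. It did not pass in 10 of its 16 alternatives, among them without wild type array 3 (-0.36, adjusted p = 0.133 by limma). None of the 8 measured of 9 other peptide genes of these nuclei passed either. Tac1, the substance P gene, differed by -0.61 (adjusted p = 0.104) and Cartpt by -0.19 (adjusted p = 0.369). Nts, the neurotensin gene, differed by -0.77 (adjusted p = 0.0694) and was read at 10.43, 10.13, 10.09 and 10.15 in wild type and at 9.87, 9.65, 9.44 and 8.77 in Nestin-Pex5-/- arrays, without overlap. Penk, the enkephalin gene, had the largest difference of the list at -1.11 (adjusted p = 0.156), and it passed under array weights and without wild type array 4. Penk and Tac1 are also genes of striatal projection neurons, and both were highest in wild type array 3, at 12.50 and 11.94, where the striatal and septal markers were high. The 4 measured markers of that list had estimates below 0 (61.7% of all genes had), with a median of -0.88, and none passed. Their part in the values of Penk and Tac1 was not tested. Nts and Tac1 passed under array weights and when the arrays were shifted to equal Actb, and Nts also without Nestin-Pex5-/- array 7 or 10.

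Of the hypothalamus markers, Pmch, the lateral hypothalamic melanin-concentrating hormone gene, lay between 12.18 and 12.83 over the 8 arrays. Hcrt, the orexin gene, lay between 10.05 and 11.08. Other markers of the list were dim: Nkx2-1 averaged 6.36 in wild type and 6.04 in Nestin-Pex5-/- arrays, and Nr5a1 6.24 and 6.06. The array medians over all probe sets were 6.70 to 6.84. Of 8 measured hypothalamus markers, 1 passed, Nkx2-1, which fell by 0.32 on the log2 scale (adjusted p = 0.037, and 0.0069 to 0.117 over its alternatives, with the call lost in 9 of them). All 8 estimates were below 0. Of all genes, 61.7% were below 0 and 4.77% passed. None of 7 neuronal markers passed. Of 6 measured microglial markers 5 passed, all higher, with C1qa at 2.93. Of 5 astrocyte markers 2 passed, both higher, with Gfap at 2.76, but the list median was 0.11 and 1 estimate was below 0. None of 5 measured oligodendrocyte markers passed, but all 5 were above 0 with p under 0.05 before adjustment (median 0.45), and the 6 thalamus markers were above 0 (median 0.14) with none past the threshold. None of 6 measured anterior pituitary markers passed, and 3 had estimates below 0. Prl was 6.36 and 7.15 in Nestin-Pex5-/- arrays 7 and 8 against 4.49 to 4.80 in the other 6 arrays. Cga of the same list had another pattern. It was 6.78, 7.64, 4.83 and 7.85 in wild type arrays 1 to 4 and 6.62 to 7.38 in Nestin-Pex5-/- arrays. Choroid plexus markers were low in wild type array 4, where Ttr was 10.51 against 14.02 to 14.59 elsewhere. The part of these differences in cell and tissue makeup in the hormone values was not tested.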

How the data were processed

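Hypothalamus RNA of 4 wild type and 4 Nestin-Pex5-/- mice was read on Affymetrix whole-genome mouse arrays, 1 per mouse. The deposited values are log2 levels made by the authors with RMA, named in the submitters' processing notes without a version. RMA subtracts background and fits all arrays to 1 distribution, and it gives no detection call, so the background share of dim probe sets is unknown. The number of arrays limits the precision. Of 45101 probe sets, 34958 were annotated to 1 gene and used, 932 to several and 9211 to none. Where a gene had several, the one of highest mean level over all arrays stood for it. Limma 3.58.1 (R 4.3.3) compared the genotypes by lmFit and eBayes, two-sided and with no covariate, as tested on simulated data, with Benjamini-Hochberg adjustment over 18194 genes. Exact permutation tests ran over 70 assignments of the arrays. All members are described. From each related list up to 4 genes past the threshold with the largest change were named, or else the 2 with the highest level, and other genes were named after their values were seen. The members and lists were chosen with earlier results of these data known. Alternatives were a filter on dim probe sets, other choices of probe set, other scalings, trended and robust eBayes, array weights and leaving out each array. Figures were drawn with matplotlib 3.10.9. The authors' own comparisons were not used.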

Additional observations from a re-analysis of the deposited data

Results flagged for a closer look

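In 16 of 152 sets of 4 arrays (76 genes in each genotype), 1 array stood far from the other 3, with a gap to the nearest that exceeded the critical value of Dixon's test at 95%. Chance gives about 1 such set in 20, but many of these genes were named after their values were seen, so the count cannot be read against that rate. Among the 18 sets of members there were 2: Oxt was 11.00 in wild type array 3 against 11.57 to 11.65 in the others, and Sst was 10.86 in Nestin-Pex5-/- array 7 against 10.45 to 10.47. Wild type array 3 also stood apart for Pmch at 12.22, Drd2 at 9.03, Tac1 at 11.94 and the tanycyte gene Col23a1 at 6.36. Wild type array 2 stood apart for Slc6a3 at 5.64 and Slc18a2 at 7.98. Wild type array 4 stood apart for Ttr at 10.51, Aqp4 at 11.69, Qdpr at 13.45, Pgr at 9.28, the hypothalamic gene Nr5a1 at 6.48 and the meningeal gene Slc6a13 at 8.05. In the Nestin-Pex5-/- group, Nkx2-1 was 6.14 in array 7 and Scg3 was 12.10 in array 10, each above the other 3.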

How the results depend on the processing

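No member passed the threshold in the main setting, and 1, Sst, passed with array weights (-0.39, adjusted p = 0.0155). When single arrays were left out the count of members past the threshold ranged from 0 to 1, the 1 again being Sst (without Nestin-Pex5-/- array 7). Of 151 values of members under an alternative, 13 lay on the other side of 0, all of Avp or Th, and the cause was not tested. Avp was -0.013 after a second quantile normalization, -0.014 with the arrays shifted to 1 median, -0.12 with them shifted to equal Actb and -0.11 with array weights, and from -0.14 to 0.13 without single arrays. Th was 0.35 with array weights and from -0.46 to 0.13 without single arrays. The other 7 members stayed below 0 in all 117 of their values. Without single arrays Oxt ranged from -0.58 to -0.28, Crh from -0.43 to -0.19, Trh from -0.60 to -0.21, Ghrh from -0.29 to -0.14, Sst from -0.39 to -0.25, Tac2 from -0.55 to -0.22 and Gal from -0.57 to -0.17. The lowest values came without Nestin-Pex5-/- array 7 (Ghrh: wild type array 3), and the highest without Nestin-Pex5-/- array 10 (Tac2 and Ghrh: array 9, Sst: wild type array 3). Over all genes 868 passed. With equal Actb 1626 passed, 1086 of them lower, so that 33.2% were higher against 83.4% in the main setting, and the median of all genes moved by -0.13. With array weights 2050 passed (1351 higher, 699 lower). Without single arrays the total ranged from 593 to 1411, the genes higher from 543 to 1080 and the genes lower from 46 to 331, the highest without wild type array 4, and the lowest without Nestin-Pex5-/- array 9 (total and higher) or 10 (lower). Leaving out wild type array 1 or 2 gave 68 lower genes each, and Nestin-Pex5-/- array 8, 9 or 10 gave 60, 50 and 46. Ghrh gave no value under the filter on dim probe sets or without _s_at, _x_at and _a_at probe sets. No paired analysis was possible because the genotypes share no replicate number. Signal over background limits Ghrh, which that filter left out, since RMA values carry no detection call. Among the genes named, the filter also left out Avpr1a, Nkx2-1, Crhr2 and Pdyn. Named genes dimmer than Pdyn, among them Oxtr, Nr5a1, Cga, Prl and Col23a1, fall below that filter too. The same limit holds for all of these.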
